A study of Danio rerio with 8 samples.

Results

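Wnt proteins are secreted, lipid-modified ligands that bind Frizzled receptors together with LRP5/6 or ROR partners. In the beta-catenin branch, receptor binding stops the axin-based destruction complex from degrading beta-catenin, which then acts with LEF/TCF factors on target genes. Other branches steer planar cell polarity and calcium release. Secreted modulators sit outside the cell. SFRP, FRZB and WIF1 proteins bind Wnts, some Dickkopf (DKK) proteins act at LRP5/6, and R-spondins keep receptors at the surface. In the embryonic heart, epicardial Wnt signalling is known for its part in the mobilisation of epicardial cells and in coronary vessel growth.

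The gene group described here holds 66 zebrafish symbols of the 37685 in the count tables: 25 Wnt ligands, 18 Frizzled, LRP or ROR receptors, 17 secreted modulators and 6 intracellular components or feedback genes. Members were chosen by name, with earlier results of these data known. Every symbol beginning with wnt, fzd, sfrp, dkk or rspo was taken. To these were added lrp5, lrp6, ror1, ror2, wif1, frzb, ctnnb1, ctnnb2, axin1, axin2, lef1, nkd1 and notum1a. Of the 66, 35 passed the filter on low counts, among 16631 symbols tested in all. A further 16 had 0 counts in all 8 libraries, and 15 had counts too few to test.

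RNA was sequenced from cells sorted for the tcf21:nEGFP reporter (written nGFP in the sample titles), a nuclear green fluorescent protein driven by the regulatory DNA of tcf21, an epicardial transcription factor. The cells came from hearts of zebrafish aged 70 days post-fertilization, and every fish carried the reporter. The cxcr4a mutants (allele cxcr4aum20, 4 libraries, labelled as having lost coronary vessels) were set against wild type fish (4 libraries, labelled as controls). cxcr4a encodes a receptor for the chemokine Cxcl12, which guides coronary vessel growth in zebrafish. The labels state neither whether a library is 1 fish or a pool nor the zygosity of the mutation, so p-values measure the spread between libraries.

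Library totals ran from 18891079 to 25513003 counts in mutants and from 19584695 to 28471786 in wild type. Cxcr4a itself had 86, 229, 171 and 447 counts in mutants, against 219, 12, 118 and 27 in wild type, and a count over the whole gene does not show the mutation. The epicardial genes tcf21 (77.7 to 115 CPM in mutants, 73.0 to 142 in wild type), tbx18 (696 to 831 against 538 to 1117) and wt1b (93.1 to 187 against 69.8 to 144) were present in every library, where the unit, CPM, is a count relative to its scaled library size. The epicardial gene aldh1a2, for retinoic acid synthesis, was near 0 in both genotypes (0.0952 to 0.260 and 0.0898 to 0.263 CPM). Krt15, col1a1a and krt18a.1 were also low, at most 1.18, 0.952 and 5.19 CPM. All 21 epicardial markers summed to 19348 to 27423 CPM in mutants and 18285 to 24963 in wild type. Among them, postna (78.0 to 320 against 2.66 to 35.2 CPM), fn1a and fn1b were higher in mutants without overlap. Gstm.3 (1350 to 2266 against 2766 to 5067 CPM) and, narrowly, tgm2b (1834 to 2511 against 2550 to 4265 CPM) were lower without overlap. Of all symbols tested, 3.48% were higher and 2.82% lower without overlap. Markers of other cells were also counted. The 12 mural and smooth muscle markers summed to 2515, 11229, 1227 and 1328 CPM in mutants, against 1163, 690, 4662 and 5922 in wild type. Red cell and thrombocyte markers summed to 2819 to 7620 CPM in mutants and 674 to 12385 in wild type, lowest in wild type 1 and 2, with gata1a at 0. Leukocyte markers summed to 697 to 4633 CPM in mutants and 1391 to 3881 in wild type, with lck at 0. Cardiomyocyte markers summed to 418 to 2310 CPM in mutants and 343 to 665 in wild type, endothelial markers to 230 to 321 and 124 to 418, with plvapb at 0, and neural markers to 65.3 to 92.3 and 53.9 to 109, with mbpa at 0. Mitochondrial ribosomal RNA took 3.33% to 7.38% of counts in mutants and 3.82% to 21.4% in wild type, most in wild type 1 (21.4%) and wild type 2 (9.96%). The part of these differences in the results on Wnt genes was not tested. Values without wild type 1 and 2 are given for some genes. These libraries were lowest in both mural and red cell sums and highest in mitochondrial ribosomal RNA, so such values cannot tell these differences apart.

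No Wnt member passed an adjusted p of 0.05 in edgeR's quasi-likelihood test with Benjamini-Hochberg adjustment over all symbols (0 of 35), beside 0.0481% of all symbols tested. DESeq2 also called 0 of 35 (1.99% of its symbols) and limma voom 0 of 35 (0.012%). At an unadjusted edgeR p under 0.05, 3 members were called (8.57%), close to the 8.64% of all symbols, so the share is no result about the Wnt genes. All 3 were lower in mutants (8.57%, against 3.55% of all symbols), and 0 members were higher, against 5.09%. The 3 members stayed lower without wild type 1 and 2, a setting chosen after seeing the data. Their log2 fold changes were then -1.07 for fzd3a, -0.18 for wnt4 and -1.04 for dkk3a. The excess of lower over higher members did not hold in that setting. There, 6 of 36 tested members were higher at that threshold and 1 was lower, beside 2153 of 18095 symbols in either direction. Among the 6 was dkk1a, not tested with all 8 libraries, which had 0 counts in every wild type library and could only count as higher. The shares of all symbols higher and lower were not counted in that setting. It therefore cannot be told whether all symbols moved likewise. In 1 member, wnt6a, the 4 mutant libraries all lay above the 4 wild type libraries, beside 3.48% of all symbols, and in 0 members did they all lie below, beside 2.82%. The log2 fold change of mutant over wild type was positive in 18 members and negative in 17, with a median of 0.03, and the median over all symbols tested was 0.01. A missed threshold does not show equal levels: the 95% interval of the log2 fold change lay within 1 of zero in 15 members and reached past 1 in 20. In bulk RNA, fewer cells of a type and less RNA per cell cannot be told apart.

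**Figure D1:**
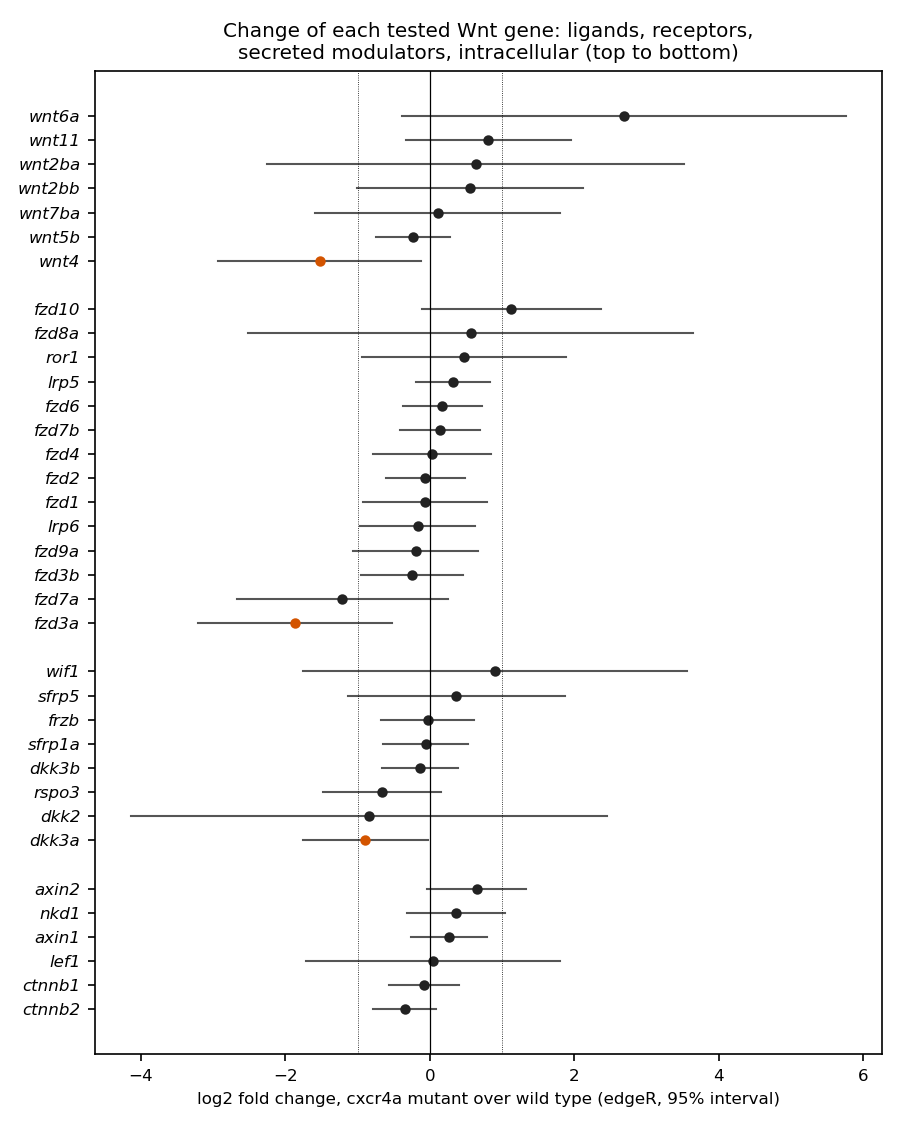
Log2 fold change of cxcr4a mutant over wild type for the 35 tested Wnt members, grouped by role, with points for the edgeR estimate, bars for its 95% interval and dotted lines at -1 and 1. The 3 orange points (fzd3a, wnt4, dkk3a) are the members with an unadjusted p under 0.05, and all 3 lie below zero.

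Among the 25 ligands, 7 were tested, 10 had 0 counts in every library and 8 had between 1 and 47 counts in all. The 7 tested ligands were wnt2ba, wnt2bb, wnt4, wnt5b, wnt6a, wnt7ba and wnt11. Their fold changes ran from -1.53 for wnt4 to 2.69 for wnt6a on the log2 scale, 5 positive and 2 negative. Summed over all 25, ligand levels were 220, 373, 231 and 230 CPM in mutants, against 317, 346, 212 and 203 CPM in wild type, so the groups overlapped.

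Wnt5b, a ligand best known in zebrafish for cell movements through the polarity branch, had 154, 104, 131 and 143 CPM in mutants, against 164, 205, 123 and 133 CPM in wild type. It averaged 133 ± 21.6 CPM in mutants and 156 ± 36.9 in wild type (n = 4 each, SD). The groups overlapped, and the log2 fold change of -0.23 ± 0.23 (SE; 95% interval -0.75 to 0.28; edgeR adjusted p = 0.838) had an interval within 1 of zero.

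Wnt11, a polarity branch ligand, had 44.1, 246, 63.4 and 56.0 CPM in mutants. In wild type it had 68.1, 50.1, 56.2 and 58.8 CPM. Only mutant 2 stood apart, at 246 CPM, while the other 7 libraries lay between 44.1 and 68.1. The log2 fold change was 0.81 ± 0.51 (SE; 95% interval -0.33 to 1.95; edgeR adjusted p = 0.717), and without mutant 2 it was -0.10. Mutant 2 was also the library with the highest summed mural markers (11229 CPM). Wild type 4 and wild type 3 came next (5922 and 4662 CPM), with wnt11 at 58.8 and 56.2 CPM. The part of mural cells in the wnt11 values was not tested.

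Wnt4, a ligand known for signalling in kidney and gonad development, had 9.72, 11.2, 25.6 and 23.6 CPM in mutants, against 81.3, 81.8, 29.7 and 9.27 CPM in wild type. Wild type 1 and 2 were the 2 high libraries, and wild type 4 was the lowest of all 8. The mean was 17.5 ± 8.23 CPM in mutants and 50.5 ± 36.8 in wild type (n = 4 each, SD), a log2 fold change of -1.53 ± 0.63 (SE; 95% interval -2.94 to -0.12; edgeR adjusted p = 0.534). Leaving out 1 library at a time gave log2 fold changes from -1.87 to -1.20, and leaving out mitochondrial genes gave -1.56 (edgeR adjusted p = 0.527). Leaving out the 2 high libraries, wild type 1 and 2, together gave -0.18 (edgeR adjusted p = 0.946). These 2 also had the most mitochondrial ribosomal RNA, the part of which was not tested.

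Wnt6a had 154, 72, 74 and 73 counts in mutants, against 0, 49, 0 and 11 in wild type. Scaled, these were 7.33, 4.18, 3.21 and 2.55 CPM in mutants and 0, 2.13, 0 and 0.523 CPM in wild type, so the lowest mutant lay just above the highest wild type library. The level averaged 4.32 ± 2.12 CPM in mutants and 0.664 ± 1.01 in wild type (n = 4 each, SD). The log2 fold change of 2.69 ± 1.37 had an interval from -0.38 to 5.77 (SE and 95% interval; edgeR adjusted p = 0.635), and without wild type 2, which held 49 of the 60 wild type counts, it was 4.61.

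The other 3 tested ligands were near the limit of the filter, each below 5 CPM in every library. Wnt2bb, known for liver specification in the zebrafish embryo, had 0.524 to 3.42 CPM in mutants and 0.737 to 1.44 in wild type. Wnt2ba had 1.00 to 4.16 CPM in mutants and 0 to 3.62 in wild type, and wnt7ba 0.698 to 2.44 and 0.333 to 2.05. All 3 overlapped between genotypes. Of the untested ligands, wnt16 summed to 37 counts over the mutants, against 10 over wild type, and wnt4b to 22 against 12. Wnt1 had 1, 0, 0 and 19 counts in mutants and wnt7aa 19 counts, all in mutant 4, while both had 0 in wild type. Wnt3, wnt3a, wnt9b and wnt10a had 1 to 4 counts each over all 8 libraries.

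The ligands at 0 in all 8 libraries were wnt2, wnt5a, wnt6b, wnt7bb, wnt8-2, wnt8a, wnt8b, wnt9a, wnt10b and wnt11f2. With 184188910 counts in all, a count of 0 allows a level of up to 0.0163 CPM over the 8 libraries (3 counts; counting error only). Such a 0 speaks of reads assigned to that symbol in the annotation the authors used.

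**Figure D2:**
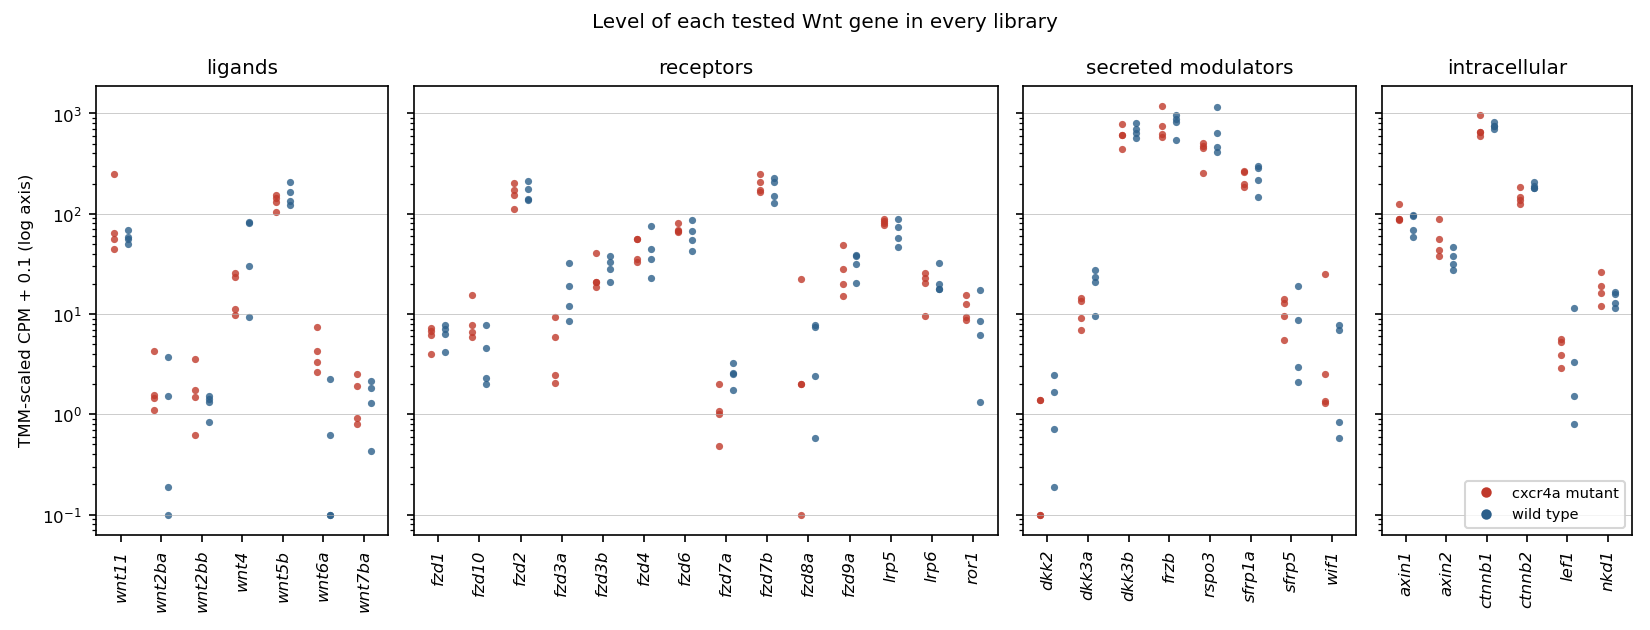
Level of each tested Wnt member in each library, in CPM plus 0.1 on a log axis, grouped by role, with cxcr4a mutant and wild type libraries in separate colours. Levels are not scaled to transcript length, so the plot compares libraries within a gene; the 2 genotypes overlap in every row except wnt6a.

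Of the 18 receptors, 14 were tested, 7 with positive and 7 with negative fold changes and a median of -0.01 on the log2 scale. Fzd9b had 0 counts in all libraries, and fzd5, fzd8b and ror2 had at most 23 counts in all. Summed receptor levels were 624, 711, 714 and 616 CPM in mutants, against 789, 713, 554 and 521 CPM in wild type. The mutant libraries lay within the wild type range.

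Fzd7b, a Frizzled that in zebrafish acts in both beta-catenin and polarity signalling, had 207, 247, 173 and 163 CPM in mutants, against 225, 210, 129 and 150 CPM in wild type. Fzd2 had 152, 110, 202 and 171 CPM in mutants and 175, 210, 136 and 140 CPM in wild type. Both overlapped, with log2 fold changes of 0.15 ± 0.25 (95% interval -0.41 to 0.70) for fzd7b and -0.06 ± 0.25 (-0.61 to 0.49) for fzd2 (SE; edgeR adjusted p = 0.920 and 0.975). Lrp5, a co-receptor of the beta-catenin branch, had 88.9, 84.4, 77.0 and 79.8 CPM in mutants, against 88.2, 56.7, 73.2 and 46.1 CPM in wild type. All 4 mutant libraries lay above 3 of the wild type libraries and near the remaining one, and the log2 fold change was 0.32 ± 0.23 (SE; 95% interval -0.19 to 0.84; edgeR adjusted p = 0.765).

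Fzd3a had the smallest p of all members. This Frizzled, known for axon guidance and neuron migration through the polarity branch, had 5.86, 1.97, 2.39 and 9.32 CPM in mutants, against 32.3, 18.8, 8.44 and 11.9 CPM in wild type. Mutant 4 lay above wild type 3, and the other 3 mutants lay below every wild type library. The mean was 4.88 ± 3.43 CPM in mutants and 17.8 ± 10.5 in wild type (n = 4 each, SD), a log2 fold change of -1.86 ± 0.60 (SE; 95% interval -3.21 to -0.52; edgeR adjusted p = 0.412, DESeq2 adjusted p = 0.0823). Leaving out 1 library at a time gave log2 fold changes from -2.38 to -1.42, and leaving out wild type 1 and 2 together gave -1.07 (edgeR adjusted p = 0.589). Its paralogue fzd3b had 18.6 to 40.3 CPM in mutants and 20.6 to 38.2 in wild type, with full overlap.

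A further pair of receptors, chosen after their values were seen, had log2 fold changes beyond 1 in size at low level. Fzd10 had 7.62, 15.5, 6.59 and 5.83 CPM in mutants, against 2.21, 1.92, 4.46 and 7.65 CPM in wild type, where wild type 4 fell among the mutants. Its log2 fold change was 1.13 ± 0.55 (SE; 95% interval -0.11 to 2.36; edgeR adjusted p = 0.613), and without wild type 1 and 2 it was 0.51. Fzd7a, the paralogue of fzd7b, had 0.381, 0.986, 1.91 and 0.908 CPM in mutants and 2.48, 3.14, 2.42 and 1.66 CPM in wild type, with mutant 3 above wild type 4 and a log2 fold change of -1.21 ± 0.65 (SE; edgeR adjusted p = 0.661).

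The remaining receptors overlapped between genotypes. Fzd4, known in vertebrates for blood vessel growth in the eye as the receptor of norrin, had 33.0 to 56.2 CPM in mutants and 22.6 to 75.0 in wild type. Fzd6 had 66.1 to 81.4 CPM in mutants and 42.1 to 87.0 in wild type. Lrp6, the partner of Lrp5, had 9.43 to 25.3 CPM in mutants and 17.7 to 32.4 in wild type, and ror1, a receptor tyrosine kinase for Wnt ligands, 8.52 to 15.4 and 1.24 to 17.1. Fzd1 had 3.91 to 7.23 CPM in mutants and 4.04 to 7.71 in wild type, and fzd9a 14.9 to 49.0 and 20.3 to 38.4.

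**Figure D3:**
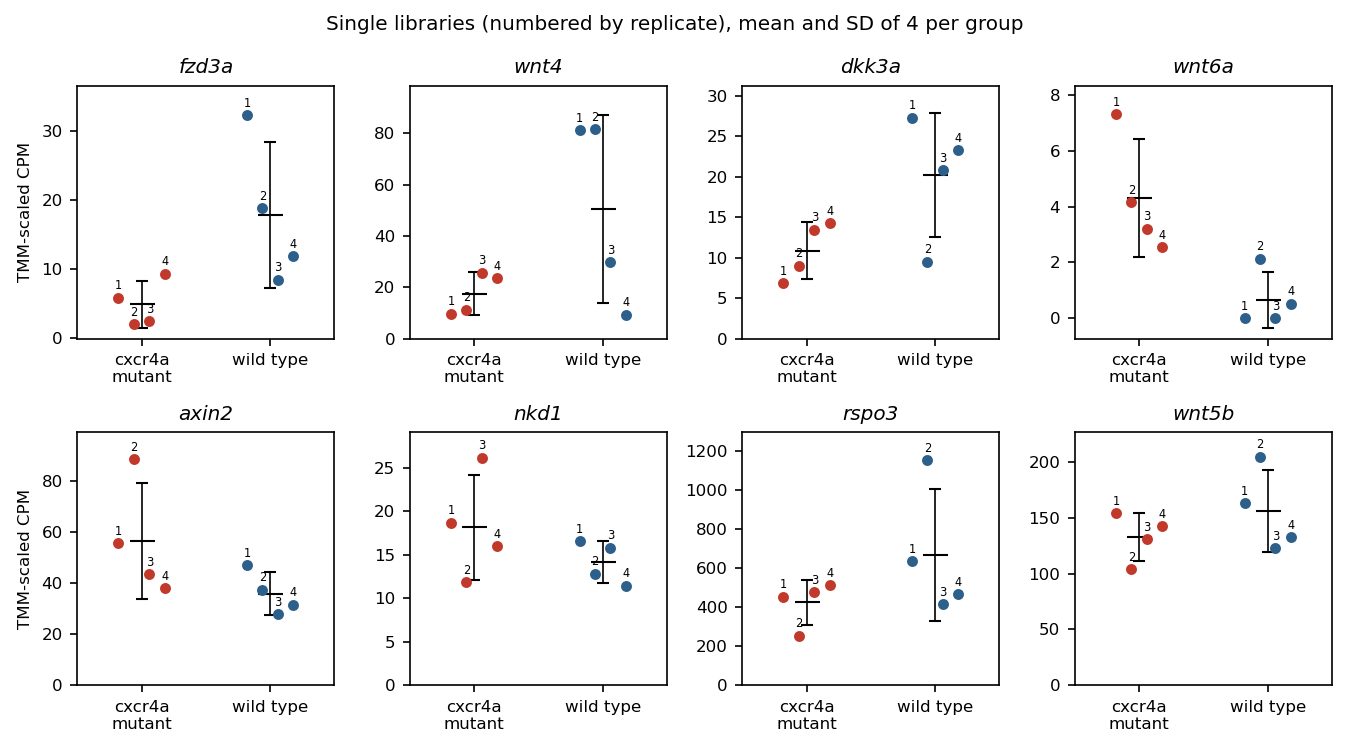
Level in CPM of 8 Wnt members in each library (points), with the mean and SD of each genotype, cxcr4a mutant left of wild type. Fzd3a, wnt4 and dkk3a have lower means in mutants, wnt6a is the member whose groups do not overlap, and axin2, nkd1, rspo3 and wnt5b overlap.

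The secreted modulators numbered 17, of which 8 were tested, 2 with positive and 6 with negative fold changes. Their summed level was 2213, 2352, 2005 and 1751 CPM in mutants, against 2347, 3224, 1775 and 2297 CPM in wild type. Frzb, a secreted Frizzled-like protein that binds Wnts, had 757, 1176, 629 and 587 CPM in mutants and 814, 962, 549 and 887 CPM in wild type. The 2 genotypes spanned much the same range, averaging 787 ± 269 CPM in mutants and 803 ± 180 in wild type (n = 4 each, SD), and the log2 fold change was -0.03 ± 0.29 (SE; 95% interval -0.67 to 0.62; edgeR adjusted p = 0.990).

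Dkk3b, of the divergent DKK3 branch of the Dickkopf family, had 789, 615, 610 and 439 CPM in mutants, against 565, 796, 632 and 697 CPM in wild type. Its log2 fold change was -0.13 ± 0.24 (SE; 95% interval -0.66 to 0.39; edgeR adjusted p = 0.924), and the libraries overlapped. The related dkk3a had 6.81, 8.99, 13.4 and 14.2 CPM in mutants, against 27.3, 9.50, 20.8 and 23.3 CPM in wild type. Only wild type 2 came within the mutant range. Dkk3a averaged 10.9 ± 3.56 CPM in mutants and 20.2 ± 7.63 in wild type (n = 4 each, SD), a log2 fold change of -0.89 ± 0.39 (SE; 95% interval -1.76 to -0.03; edgeR adjusted p = 0.561), and without wild type 1 and 2 it was -1.04.

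Rspo3, which in mice is known for coronary artery formation, was the one R-spondin counted: rspo1, rspo2 and rspo4 had 0 counts in all 8 libraries. It had 452, 252, 476 and 510 CPM in mutants, against 632, 1152, 414 and 465 CPM in wild type. Wild type 2 was the highest of the 8 and mutant 2 the lowest, and the other 6 lay between 414 and 632. The mean was 422 ± 116 CPM in mutants and 666 ± 337 in wild type (n = 4 each, SD), a log2 fold change of -0.66 ± 0.37 (SE; 95% interval -1.47 to 0.16; edgeR adjusted p = 0.670). Without wild type 2 it was -0.26, and without wild type 1 and 2 it was -0.08.

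Sfrp1a, a Wnt-binding secreted Frizzled-related protein and the next member by CPM, had 186 to 265 CPM in mutants and 147 to 296 in wild type. Sfrp5, of the same family, had 5.43 to 14.0 CPM in mutants and 2.00 to 18.8 in wild type, and dkk2 had at most 2.36 CPM in any library. Dkk1b and sfrp1b were at 0 in all 8 libraries, and sfrp2 summed to 15 counts over the mutants, against 6 over wild type, and sfrp2l to 24 against 1.

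Dkk1a, an inhibitor of the beta-catenin branch, did not pass the filter with all 8 libraries. It had 52, 4, 0 and 24 counts in mutants and 0 in every wild type library, 80 against 0 in all. Against a floor of 3 counts over the wild type group, the pooled mutant counts as observed were 28.4-fold higher. The counting error of the mutant counts is not in this value, so it is not a lower bound. It also leaves out the spread between libraries: mutant 1 held 52 of the 80 counts, and 1 mutant library was also at 0. With no filter on low counts, edgeR gave dkk1a an adjusted p of 0.429.

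Wif1, which binds Wnts, and fzd8a, a Frizzled, were singled out after their values were seen, because of their pattern over libraries. Wif1 had 2.43, 24.8, 1.26 and 1.19 CPM in mutants, against 0.737, 0.479, 7.66 and 6.85 CPM in wild type. Fzd8a had 0, 22.4, 1.91 and 1.92 CPM in mutants and 0.474, 2.31, 7.24 and 7.61 CPM in wild type. Both were highest in mutant 2, wild type 3 and wild type 4. The same 3 libraries were highest for the smooth muscle genes acta2 (129, 6182, 61.5 and 17.2 CPM in mutants, against 30.1, 21.3, 2188 and 3300 in wild type) and myh11a (47.7, 2016, 66.3 and 85.7 against 36.6, 40.9, 883 and 818). Of the 12 mural markers, 3 (acta2, myh11a and rgs5a) had these 3 libraries highest and 9 did not. Of those 9, desmb had counts only in wild type 3 and wild type 4 (12 and 5), with the rest tied at 0. Pdgfrb, a mural receptor, was highest in mutant 1 (886, 345, 558 and 538 CPM in mutants, against 712, 394, 408 and 351 in wild type), as was rgs5b (408, 313, 42.8 and 101 against 52.5, 46.0, 53.4 and 26.0). The part of these cells in the values of wif1 and fzd8a was not tested. Between genotypes the log2 fold change was 0.91 ± 1.19 for wif1 and 0.57 ± 1.38 for fzd8a (SE; edgeR adjusted p = 0.886 and 0.949). Without mutant 2 both were negative, at -1.27 and -1.78.

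**Figure D4:**
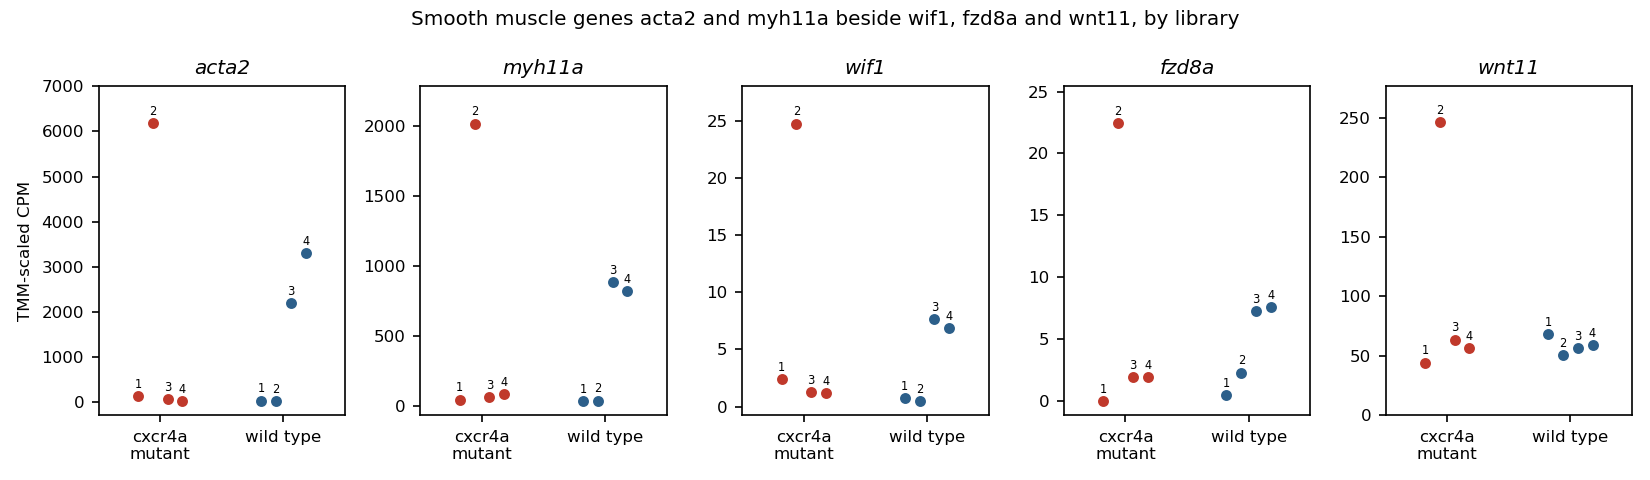
Level in CPM of the smooth muscle genes acta2 and myh11a and of the Wnt members wif1, fzd8a and wnt11 in each library, mutants left of wild type. Mutant 2, wild type 3 and wild type 4 are the 3 highest libraries for acta2, myh11a, wif1 and fzd8a, while wnt11 is high in mutant 2 alone. Of the 12 mural markers, 9, which are not plotted, do not have these libraries as their 3 highest. Among those 9, desmb has counts only in wild type 3 and wild type 4, with the rest tied at 0.

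All 6 members classed as intracellular components or feedback genes were tested. The feedback gene notum1a, which encodes a secreted enzyme, was classed with the secreted modulators. Beta-catenin is encoded by ctnnb1 and ctnnb2 in zebrafish. Ctnnb1 had 659, 957, 652 and 593 CPM in mutants, against 701, 824, 743 and 751 CPM in wild type, a log2 fold change of -0.08 ± 0.22 (SE; 95% interval -0.57 to 0.41; edgeR adjusted p = 0.961). Ctnnb2 had 185, 138, 148 and 126 CPM in mutants and 182, 208, 180 and 190 CPM in wild type. Only mutant 1 reached the wild type range of ctnnb2, which averaged 149 ± 25.5 CPM in mutants and 190 ± 12.7 in wild type (n = 4 each, SD). Its log2 fold change was -0.35 ± 0.19 (SE; 95% interval -0.78 to 0.08; edgeR adjusted p = 0.670).

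Axin1, the scaffold of the destruction complex, had 89.0, 124, 85.9 and 87.8 CPM in mutants, against 95.5, 98.0, 59.2 and 68.1 CPM in wild type. Mutant 2 was the highest, and the other 3 mutants fell inside the wild type range. The log2 fold change was 0.27 ± 0.24 (SE; edgeR adjusted p = 0.808), and without wild type 1 and 2 it was 0.57.

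Axin2, a destruction complex scaffold that is itself a widely used target of the beta-catenin branch, had 55.5, 88.5, 43.3 and 37.9 CPM in mutants, against 46.9, 37.4, 27.6 and 31.4 CPM in wild type. Mutants 1 and 2 lay above every wild type library, and mutants 3 and 4 lay below wild type 1. The mean was 56.3 ± 22.7 CPM in mutants and 35.8 ± 8.38 in wild type (n = 4 each, SD), a log2 fold change of 0.65 ± 0.31 (SE; 95% interval -0.03 to 1.33; edgeR adjusted p = 0.592). Over 18 alternative settings the log2 fold change of axin2 ran from 0.34, without mutant 2, to 0.89, without wild type 1 and 2.

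Nkd1, another feedback inhibitor, had 18.7, 11.8, 26.2 and 16.0 CPM in mutants, against 16.5, 12.8, 15.8 and 11.5 CPM in wild type. Mutants 1 and 3 lay above the wild type range, mutant 4 inside it and mutant 2 near its lower end. The log2 fold change of nkd1 was 0.36 ± 0.30 (SE; 95% interval -0.32 to 1.04; edgeR adjusted p = 0.794). Lef1, the nuclear partner of beta-catenin and also a target, had 2.81, 5.51, 5.12 and 3.81 CPM in mutants and 3.21, 0.697, 1.44 and 11.4 CPM in wild type. Its mutant libraries lay within the wild type range, with a log2 fold change of 0.05 ± 0.79 (SE; 95% interval -1.71 to 1.80; edgeR adjusted p = 0.993). The feedback gene notum1a, a secreted enzyme that removes the lipid from Wnts, had 0, 0, 4 and 0 counts in mutants and 0 in every wild type library, and was not tested.

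Some members were counted on more than 1 row of the deposited tables, with a number added to the symbol. The 66 symbols took up 88 rows, which were summed here. Fzd9a was split, with 73, 162, 181 and 172 counts in mutants and 269, 110, 1 and 0 in wild type on the row with the plain symbol. Its second row had 339, 683, 462 and 254 counts in mutants, against 460, 748, 1051 and 428 in wild type. Reads could have been divided between such rows, so single-row values are uncertain, and the sources used here do not say what sets the rows apart. Tested row by row, 0 of 37 member rows were called by edgeR. The same 3 members had an unadjusted p under 0.05, beside 1951 of 18002 rows in all.

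Pathway genes outside the members were read from 8 lists covering Wnt secretion, R-spondin receptors, other extracellular modulators, the destruction complex, nuclear partners, known targets, planar cell polarity and calcium signalling. Of 132 symbols, 123 were in the files and 104 were tested, 56 with positive and 48 with negative fold changes and a median of 0.04 on the log2 scale. EdgeR called 0 of 104 after adjustment and 10 at an unadjusted p under 0.05 (9.62%, against 8.64% of all symbols), 8 of them higher in mutants (7.69%, against 5.09%) and 2 lower (1.92%, against 3.55%). DESeq2 called 2, prickle1a and sulf1 (1.94% of those with an adjusted p, against 1.99% of all its symbols), and limma voom called 0. The DESeq2 share and the share at an unadjusted p in either direction are near those of all symbols and are no result about the pathway. In 5 of the 104 genes all mutant libraries lay above all wild type libraries (4.81%, against 3.48% of all symbols), and in 1, cthrc1b (named after its values were seen), all lay below (0.962%, against 2.82%). Cthrc1b was low and barely separated, at 0, 0, 1.084 and 0.419 CPM in mutants, against 1.686, 1.089, 1.855 and 1.188 CPM in wild type.

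The median log2 fold change was 0.15 over the 13 tested targets, with 7 positive and 6 negative, and -0.40 over the 16 nuclear partners, with 5 positive and 11 negative. Other co-receptors and extracellular modulators had a median of 0.38, with 10 positive and 5 negative. In the other lists the medians were 0.15 over 3 secretion genes, -0.09 over 4 R-spondin receptor genes, -0.03 over 22 destruction complex genes, 0.10 over 19 polarity genes and 0.12 over 16 calcium branch genes. Wls, the carrier that takes Wnts to the cell surface, averaged 620 ± 50.5 CPM in mutants and 560 ± 42.4 in wild type (n = 4 each, SD), a log2 fold change of 0.15 ± 0.18 (SE; edgeR adjusted p = 0.880). Porcn, the enzyme that attaches the lipid to Wnts, was counted 0 times in mutants and 1 time in wild type. Both secretion genes were chosen after their values were seen.

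Prickle1a, a cytoplasmic planar cell polarity component, had 27.3, 19.1, 9.15 and 7.89 CPM in mutants, against 5.16, 5.53, 3.65 and 2.47 CPM in wild type. Every mutant library lay above every wild type library. The log2 fold change was 1.91 ± 0.49 (SE; edgeR adjusted p = 0.266; DESeq2 adjusted p = 0.0130). Sulf1 and sulf2b encode enzymes that trim sulfate from the heparan sulfate chains to which Wnts and other growth factors bind.

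Sulf1 had 197, 249, 166 and 96.9 CPM in mutants and 58.3, 45.8, 91.6 and 95.5 CPM in wild type, with mutant 4 only just above wild type 4. Its log2 fold change was 1.28 ± 0.34 (SE; edgeR adjusted p = 0.287; DESeq2 adjusted p = 0.0288). Over 18 alternative settings it ran from 0.89 to 1.49. Sulf2b had 92.7, 44.8, 93.9 and 109 CPM in mutants, against 41.2, 23.4, 53.4 and 24.3 CPM in wild type, with mutant 2 below wild type 3. Sulf2b had a log2 fold change of 1.26 ± 0.36 (SE; edgeR adjusted p = 0.321; DESeq2 adjusted p = 0.0509).

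Of the other genes with higher means in mutants, daam2, a formin of the polarity branch, had 13.3, 13.4, 10.7 and 10.4 CPM in mutants and 3.79, 2.44, 7.24 and 9.79 CPM in wild type, without overlap. Camk2d1, a calcium-dependent kinase, had 98.7, 94.7, 88.4 and 107 CPM in mutants, against 58.5, 47.3, 82.0 and 56.8 CPM in wild type, also without overlap. Ptk7b, a polarity co-receptor, had 14.9, 7.77, 7.55 and 8.90 CPM in mutants and 3.53, 7.45, 5.45 and 2.95 CPM in wild type, the lowest mutant just above wild type 2. Their log2 fold changes were 1.04 ± 0.45 for daam2, 0.67 ± 0.21 for camk2d1 and 1.01 ± 0.43 for ptk7b (SE; edgeR adjusted p = 0.562, 0.409 and 0.545). Without wild type 1 and 2 the value for daam2 was 0.46. Over 18 alternative settings the value for camk2d1 ran from 0.46 to 0.84.

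Musk, a receptor kinase with a Frizzled-like domain known from the neuromuscular junction, had 64.3, 175, 116 and 43.7 CPM in mutants, against 43.9, 52.0, 26.6 and 57.0 CPM in wild type. Csnk1da, a casein kinase 1, had 284, 368, 217 and 162 CPM in mutants and 191, 157, 103 and 83.9 CPM in wild type. In each, a mutant library, mutant 4, fell inside the wild type range, and the log2 fold changes were 1.15 ± 0.43 for musk and 0.95 ± 0.34 for csnk1da (SE; edgeR adjusted p = 0.486 and 0.472). Without wild type 1 and 2 the value for csnk1da was 1.43, and without mutant 2 the value for musk was 0.73.

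The 2 genes with lower means in mutants were ctnnbip1 and nfatc4. Ctnnbip1, which blocks the binding of beta-catenin to TCF factors, had 38.8, 16.4, 29.4 and 30.8 CPM in mutants, against 29.6, 51.9, 63.4 and 72.3 CPM in wild type, with wild type 1 inside the mutant range. Nfatc4, a calcium-regulated transcription factor, had 4.48, 2.90, 7.81 and 11.2 CPM in mutants and 16.9, 23.8, 11.4 and 10.3 CPM in wild type, overlapping through mutant 4 and wild type 4. The log2 fold changes were -0.91 ± 0.34 for ctnnbip1 and -1.24 ± 0.47 for nfatc4 (SE; edgeR adjusted p = 0.488 and 0.497), and without wild type 1 and 2 that of nfatc4 was -0.74.

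**Figure D5:**
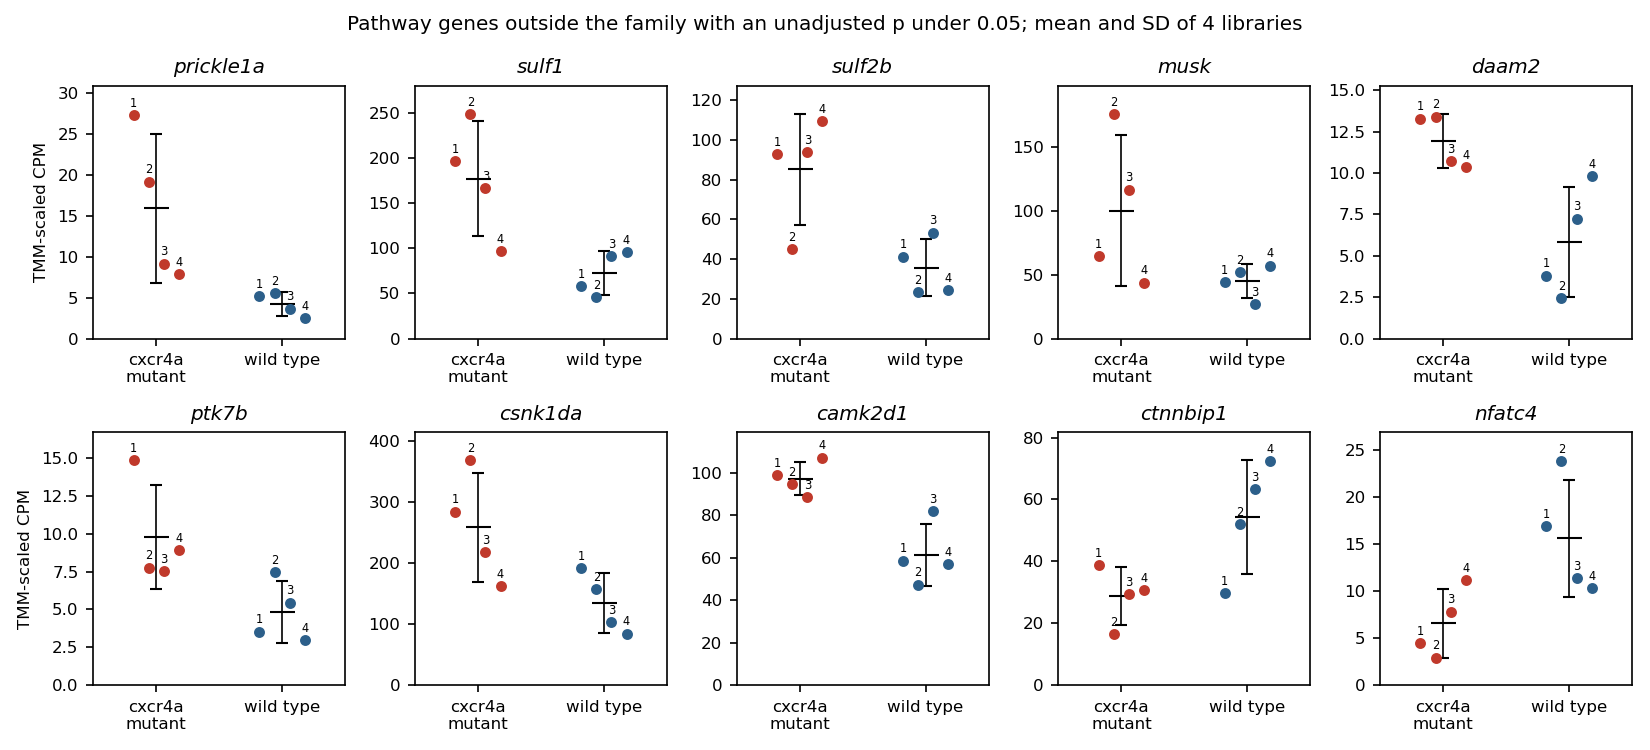
Level in CPM of the 10 pathway genes outside the members with an unadjusted edgeR p under 0.05, in each library (points) with the mean and SD of each genotype, cxcr4a mutant left of wild type. Prickle1a, sulf1, daam2, camk2d1 and ptk7b do not overlap between genotypes, and ctnnbip1 and nfatc4 have lower means in mutants.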

How the data were processed

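The deposited files hold whole-number counts of reads per gene row, 1 file per library. Per the labels' protocols, RNA of sorted cells was made into SMART-Seq v4 and Nextera XT libraries, which do not mark strand, so reads of overlapping antisense genes cannot be told apart. Per the submitters' processing notes, the tools were cutadapt 5.2, STAR 2.7.11a and HTSeq, with GRCz11.

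Rows of 1 symbol were summed. EdgeR 4.0.16 in R 4.3.3 tested 16631 symbols (filterByExpr, TMM scaling, quasi-likelihood test of genotype, Benjamini-Hochberg adjustment). DESeq2 1.42.0 and limma 3.58.1 voom with quality weights were alternatives, with other scalings, filters, rows as deposited, a replicate block and libraries left out. The code was tested on simulated data. CPM is TMM-scaled and not per length. Members and lists were chosen with earlier results of these data known.

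Values in every library are given for members with an unadjusted p under 0.05 or without overlap, the 3 highest by mean CPM in each role class, and axin2, lef1, nkd1 and notum1a. Of pathway genes outside the members, those with an unadjusted p under 0.05 are given, at most 10. Reads assigned to no gene were not analysed here.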

Additional observations from a re-analysis of the deposited data

Results flagged for a closer look

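In 7 of 70 checks of a tested member within 1 genotype, 1 library stood apart from the other 3 by Dixon's 95% critical value for 4 samples. Chance gives this in about 1 of 20 checks of independent, normally distributed values. The check used unlogged CPM, which need not be normally distributed, so that rate may not hold here. In all 7 the library apart was the highest. Mutant 2 was the high library in 4 of them. Wnt11 had 246 CPM in mutant 2, against 44.1 to 63.4 in the other mutants. Wif1 had 24.8 CPM there, against 1.19 to 2.43, and fzd8a 22.4 CPM, against 0 to 1.92. Axin1 had 124 CPM in mutant 2, against 85.9 to 89.0. Mutant 3 was high for fzd3b, at 40.3 CPM against 18.6 to 21.0, and for wnt2ba, at 4.16 CPM against 1.00 to 1.45. In wild type, lrp6 had 32.4 CPM in wild type 4, against 17.7 to 19.8 in the others.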

How the results depend on the processing

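Over 18 alternatives, the count of Wnt members called after adjustment was 0 in each. One of these, without wild type 1 and 2, was chosen after seeing the data, as was recomputing the pathway genes and the counts at an unadjusted p. The other counts moved, and the cause was not tested. Of all symbols, 8 were called by edgeR, 329 by DESeq2, 63 with rows as deposited, 2 by limma voom, 14 without wild type 1 and 2, and 0 to 9 with 1 library left out. Members with an unadjusted p under 0.05 numbered 3 of 35, beside 1437 of 16631 symbols. Without a low-count filter they numbered 5 of 50 (2344 of 26572 symbols), among them dkk1a and wnt1, both at 0 in wild type. Without wild type 1 and 2 they numbered 7 of 36, 6 higher (dkk1a among them) and 1 lower (2153 of 18095 symbols in either direction). By limma voom they numbered 2 of 35 (1769 of 16631 symbols). With 1 library left out they numbered 1 to 5 of 35, beside 1063 to 1857 of 17079 to 17291 symbols. Pathway genes called numbered 0, and 2 by DESeq2. Correlations of same-numbered libraries ran from -0.08 to 0.08 in 4 pairs, and those of other pairs from -0.12 to 0.20. These values cannot decide whether replicate numbers pair the libraries. With the numbers as a replicate block, 0 symbols were called and fzd8a was -1.31. In that setting 1 of 35 members had an unadjusted p under 0.05, beside 1320 of 16631 symbols. Of 33 named genes, 24 kept the sign of their log2 fold change under every alternative and 9 did not. Signs turned by limma voom for fzd2 (0.070), sfrp1a (0.059), wif1 (-0.49) and fzd8a (-1.74), and without mitochondrial genes for lef1 (-0.013). Without wild type 1 and 2 they turned for frzb (0.10), fzd2 (0.18), lef1 (-0.60), wnt5b (0.034), wif1 (-0.044), fzd8a (-0.25) and sfrp1a (0.30). With 1 library left out, log2 fold changes ran from -0.29 to 0.091 for frzb, -0.19 to 0.077 for fzd2, -0.32 to 1.27 for lef1, -0.10 to 1.04 for wnt11, -1.27 to 1.46 for wif1, -1.78 to 0.96 for fzd8a, -0.25 to 0.0039 for ctnnb1 and -0.23 to 0.056 for sfrp1a. Wnt6a, dkk1a and the members under about 5 CPM rest on few counts, and the part of depth in their spread was not tested.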
